A study of Nematostella vectensis with 18 samples.

Results

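The 150 genes described here were about equally abundant in tentacle cells with and without the Ncol3 reporter of the sea anemone Nematostella vectensis and were higher in Nep3-positive cells than in any other sorted population. They were chosen from 23764 gene IDs with any count in bulk RNA-seq of 18 libraries. The choice used the mean log2(CPM + 1) of each of the 4 sorted populations, where CPM stands for counts in 1000000 of the TMM-scaled library total. A gene had to reach a mean of at least 10 CPM in some population. Its Ncol3-positive and Ncol3-negative means had to lie less than 0.5 apart, and its Nep3-positive mean had to exceed the highest of the other 3 means by at least 1. This excess is called the gap below. A total of 214 genes met these limits and the 150 with the largest gap were taken. Because levels in all 4 populations chose the members, the height of the members in Nep3-positive cells and their evenness across the Ncol3 gate describe the choice and are given without a test.

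The cells came from dissociated tentacles of untreated adult polyps of 2 transgenic lines, and no labelled population lacked a transgene. In the Ncol3::mOrange line the orange fluorescent reporter is driven by Ncol3 sequence, and in the Nep3::mOrange line by Nep3 sequence, so a gate follows reporter fluorescence and not the endogenous protein. Fluorescence-activated cell sorting gave 5 Nep3-positive and 5 Nep3-negative libraries, and 4 Ncol3-positive and 4 Ncol3-negative ones, all carrying the same batch label. The labels call Ncol3-positive cells cnidocytes and Nep3-positive cells cnidocytes or nematocytes. The study compared positive with negative cells within each line and asked which expression programs distinguish cnidocyte types.

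Cnidocytes are the stinging cells of cnidarians, each holding a pressurised capsule that discharges a thread. They come in several kinds, among them nematocytes, whose capsules pierce and can deliver venom, and spirocytes, whose threads entangle prey. Ncol3 encodes a minicollagen, a structural protein of the capsule wall, and is used as a general marker of developing cnidocytes. Nep3 encodes a toxin found in a subset of nematocytes. Genes even across the Ncol3 gate but high in Nep3-positive cells are therefore a set that one of the reporters separates and the other does not.

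The deposited table gives NV2 gene IDs without names, and 0 of them matched the RefSeq gene table used. The members are therefore given by ID, with no function, position or sequence. The cell type labels could not be checked against cnidocyte, neuron, gland or muscle markers for the same reason. The only named transcript is the reporter mOrange2, which is not a member. It had 251, 213, 370 and 338 CPM in Ncol3-negative replicates 1 to 4 and 685, 783, 1162 and 1272 CPM in Ncol3-positive replicates 1 to 4. It had 36.6, 31.8, 45.3, 185 and 131 CPM in Nep3-negative replicates 1 to 5, against 625, 941, 547, 798 and 664 CPM in Nep3-positive replicates 1 to 5. Positive and negative libraries did not overlap in either line, and no negative library was free of the reporter transcript.

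Library totals lay between 5463324 and 15269119 counts, and the members received between 22673 and 286234 counts of a library. The largest library was Nep3-positive replicate 5. Within each population, a chi-square of the counts was at least 6.29 for each degree of freedom in every pair of replicates. No library was therefore a plain recount of another, which does not show that they came from separate cells or animals. Among Ncol3-positive libraries it was 7.29 between replicates 1 and 2 and 8.08 between replicates 3 and 4. Across these pairs it ran from 65.7 to 91.5, so these libraries fell into pairs that the shared batch label does not record. The source of this split was not tested. Library groups differed in composition: TMM factors were 0.590 and 0.537 in Ncol3-positive replicates 3 and 4 and between 0.890 and 1.30 in all other libraries. The evenness of the members across the Ncol3 gate depends on these factors. With library size alone, the median Ncol3-positive minus Ncol3-negative difference on the log2(CPM + 1) scale moved from 0.07 to −0.67 over the 11677 genes at 10 CPM or more. For the members it moved from 0.22 to −0.45, so relative to all genes the members stood at 0.15 and 0.21. Applied without scaling factors, the same limits were met by 430 genes, and only 32 of the 150 members were among the 150 with the largest gap.

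After TMM scaling, genes high in Nep3-positive cells were mostly also higher on the positive side of the Ncol3 gate. The members come from the smaller class that was not. Of 1244 genes at 10 CPM or more whose Nep3-positive mean exceeded the Nep3-negative mean by at least 1 on the log2(CPM + 1) scale, 813 (65.4%) were also at least 0.5 higher with the Ncol3 reporter than without it. A further 416 (33.4%) lay within the 0.5 limit and 15 (1.21%) were at least 0.5 lower. All 150 members belong to the 416. Over all 11677 genes at 10 CPM or more, the Ncol3 difference had quartiles of −0.24 and 0.47, the upper one below the 0.5 limit. These classes were counted with TMM factors only, and with library size alone the median of all genes was −0.67. There was no empty space at the limits of the choice. The last member kept had a gap of 1.1433 and the first gene left out had 1.1430. Among genes that met the other limits, the largest Ncol3 difference inside the limit was 0.493 and the smallest outside was 0.501, and the lowest peak level inside was 10.04 CPM and the highest outside was 9.82 CPM.

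**Figure D1:**
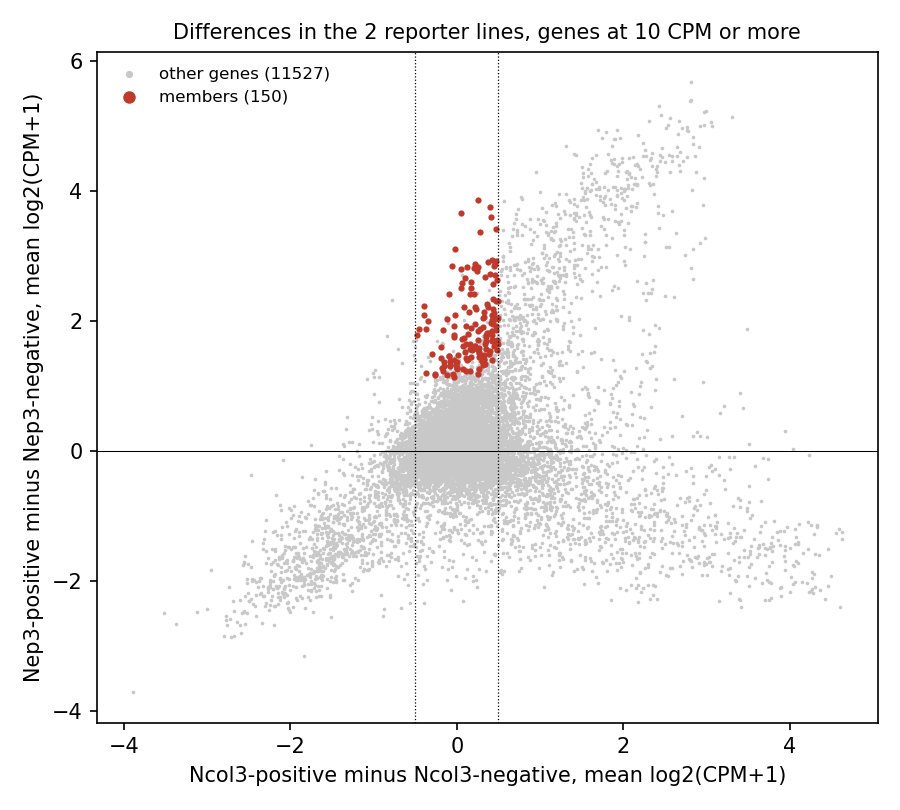
Each point is a gene with a mean of at least 10 CPM in some population. The x axis is the Ncol3-positive minus Ncol3-negative difference and the y axis the Nep3-positive minus Nep3-negative difference, both in mean log2(CPM + 1). Members are red, other genes are grey, and dotted lines mark ±0.5. The 150 members form the upper column between the lines and continue without a break into the 813 genes higher with both reporters on the right.

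The members ranged widely in abundance. Their mean in Nep3-positive cells lay between 10.04 and 5082 CPM with a median of 27.2 CPM. It was under 20 CPM in 59 members, from 20 to under 100 CPM in 71, and at least 100 CPM in 20. In the other populations the median of the member means was 6.63 CPM in Ncol3-negative, 7.30 CPM in Ncol3-positive and 6.28 CPM in Nep3-negative cells. The genes were therefore not silent outside Nep3-positive cells. The highest of the 3 other means was at least 10 CPM in 67 members, from 2 to under 10 CPM in 73 and under 2 CPM in 10. All 150 members had counts in every library except 2 members, each at 0 in 1 library. In bulk samples a smaller number of cells of a type and less RNA per cell cannot be told apart, so these lower levels may belong to few cells or to many.

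Expressed as a share of the Nep3-positive mean, the members kept a median of 25.6% in Ncol3-negative, 29.6% in Ncol3-positive and 26.1% in Nep3-negative cells. The reporter transcript kept 12.0% in Nep3-negative cells, and 25 of the 150 members had a smaller share there. Nep3-positive means were at least 4-fold above the next highest mean in 38 members, at least 10-fold in 4 and under 3-fold in 74. The gap itself had a median of 1.49 and ran from 1.14 to 3.54 on the log2(CPM + 1) scale, which understates the difference of low genes.

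**Figure D2:**
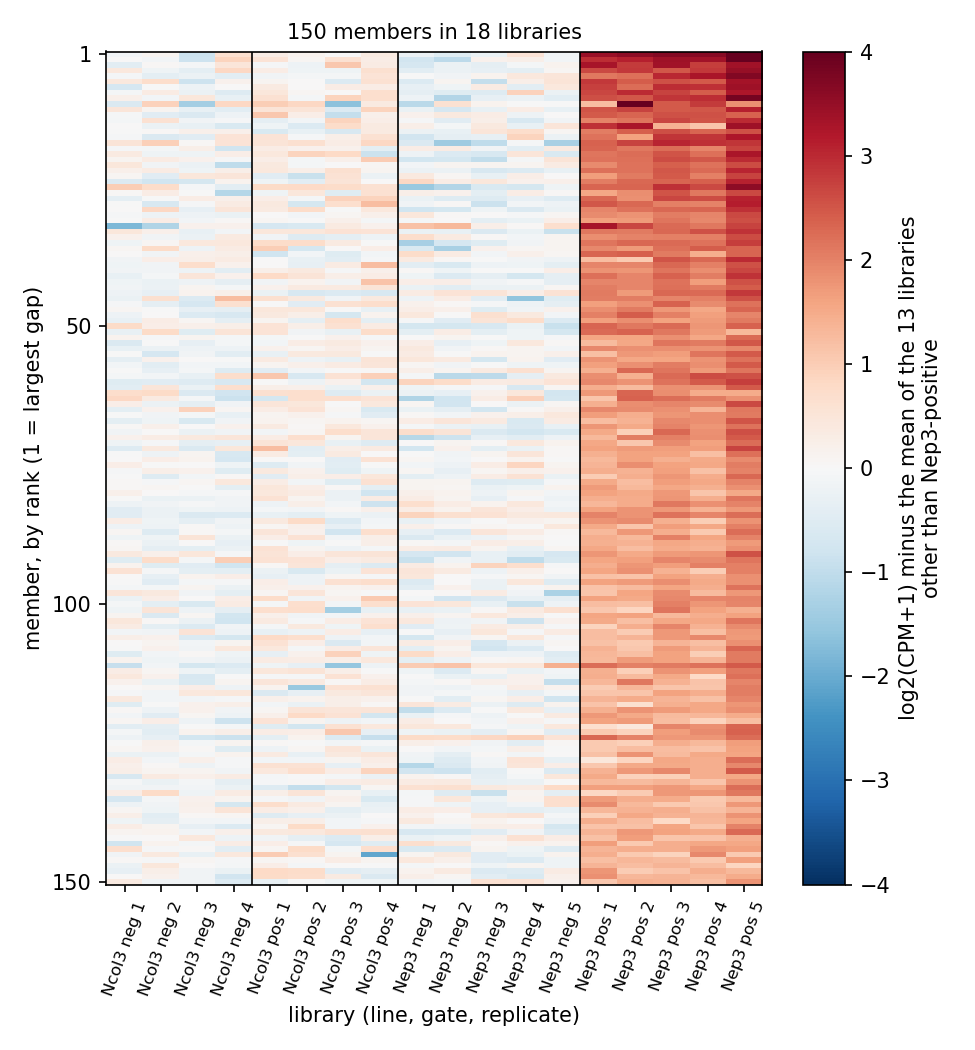
Rows are the 150 members ordered by gap and columns are the 18 libraries (line, pos or neg gate, replicate). Colour is log2(CPM + 1) minus the row's mean over the 13 libraries that are not Nep3-positive. The 5 Nep3-positive libraries are red in nearly every row and Nep3-positive replicate 5 is the darkest, being the highest of the 5 for 108 members.

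NV2.19715 and NV2.4896 had the largest gaps. NV2.19715 was at 40.6, 44.4, 47.3, 46.4 and 75.0 CPM in Nep3-positive replicates 1 to 5, a mean of 50.7 ± 13.8 CPM (SD, n = 5). It lay between 1.10 and 4.91 CPM in the 13 other libraries, so the populations were far apart. NV2.4896 was at 16.7, 18.8, 23.0, 22.3 and 48.8 CPM in Nep3-positive replicates 1 to 5 and between 0.112 and 3.22 CPM elsewhere. Its Nep3-positive mean was 25.9 ± 13.1 CPM (SD, n = 5) and its gap 3.06, against 3.54 for NV2.19715. In both genes replicate 5 was the highest by a wide margin, while the other 4 libraries lay close together. The members ranked 3 to 10 had gaps from 2.39 to 2.83, with Nep3-positive means between 11.6 and 140.5 CPM and next highest means between 1.01 and 21.7 CPM.

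NV2.7661 and NV2.5785 were the most abundant members. NV2.7661 was at 3970, 4508, 5291, 4615 and 7027 CPM in Nep3-positive replicates 1 to 5 and alone made up 35.6% of the summed Nep3-positive level of the 150 members. It was also abundant elsewhere, with 1129 ± 116 CPM in Ncol3-negative (SD, n = 4), 1564 ± 183 CPM in Ncol3-positive (n = 4) and 1213 ± 98.5 CPM in Nep3-negative cells (n = 5). Its gap was 1.68, so it is a gene of high level in all 4 populations with a further rise in Nep3-positive cells, and not one confined to them. NV2.5785 was at 436, 430, 557, 459 and 811 CPM in Nep3-positive replicates 1 to 5. Its means elsewhere were 108 ± 9.26, 146 ± 17.5 and 128 ± 14.2 CPM in Ncol3-negative, Ncol3-positive and Nep3-negative cells (SD, n = 4, 4 and 5).

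Summed over the 150 members, the level was 3636, 3411, 3555 and 3481 CPM in Ncol3-negative replicates 1 to 4 and 4075, 4149, 4216 and 4465 CPM in Ncol3-positive replicates 1 to 4. It was 3923, 3592, 3744, 3728 and 3741 CPM in Nep3-negative replicates 1 to 5 and 11715, 12401, 14699, 13142 and 19353 CPM in Nep3-positive replicates 1 to 5. The Nep3-negative libraries differed little from each other, and their mOrange2 level ranged from 31.8 to 185 CPM. Nep3-negative replicate 4, with the highest mOrange2, had a summed member level of 3728 CPM, inside the range of the others. With NV2.7661 taken out of the sum, Nep3-negative replicates 1 to 5 were at 2564, 2423, 2476, 2583 and 2617 CPM. These sums were highest in replicates 5 and 4, the 2 libraries with the most mOrange2 (131 and 185 CPM). A relation between member and reporter levels was not tested. Without NV2.7661 the sums were 2392 ± 81.1 in Ncol3-negative, 2662 ± 44.7 in Ncol3-positive, 2533 ± 80.6 in Nep3-negative and 9180 ± 1877 CPM in the Nep3-positive cells (SD, n = 4, 4, 5 and 5), in the same order.

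**Figure D3:**
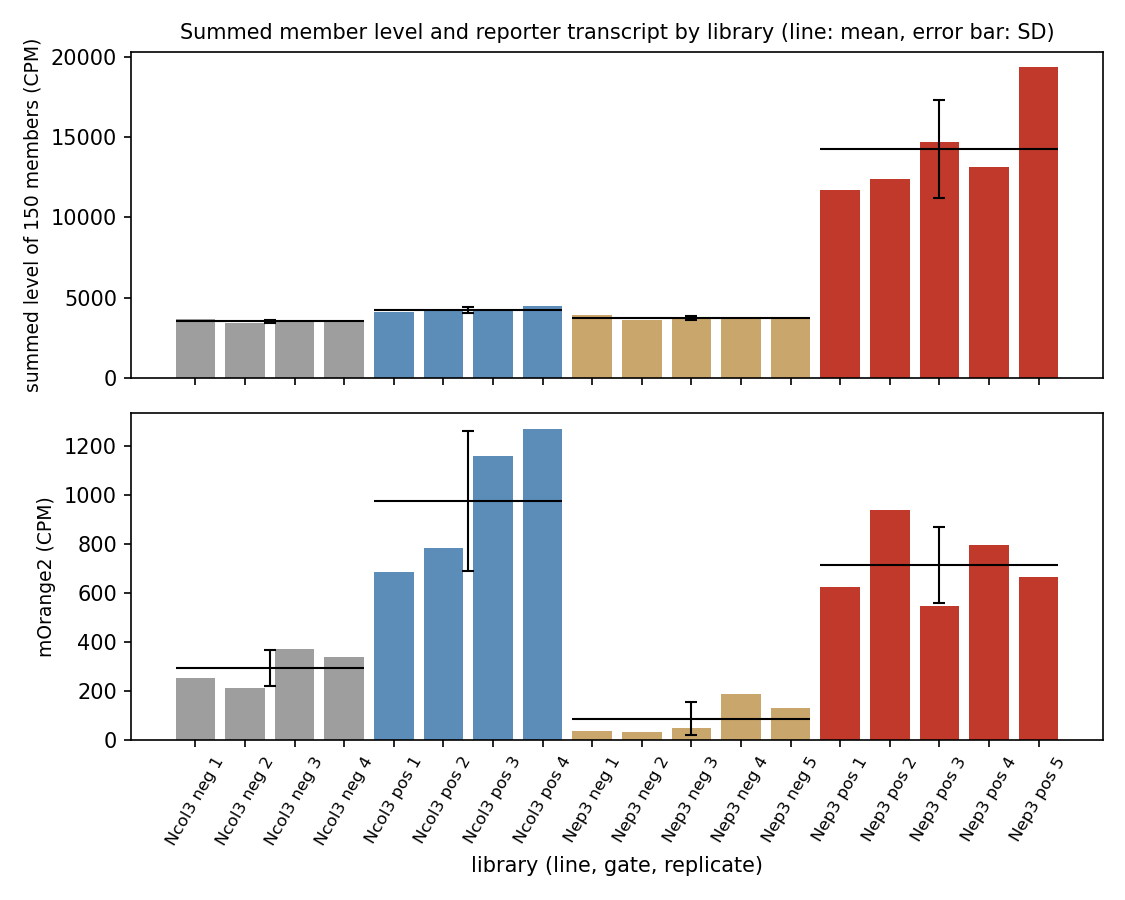
Bars give, for each library (line, pos or neg gate, replicate), the summed level of the 150 members in CPM (top) and the reporter transcript mOrange2 in CPM (bottom). Horizontal lines are group means and error bars are SD. Summed member levels lie between 3411 and 4465 CPM in the 13 libraries outside the Nep3-positive population and between 11715 and 19353 CPM inside it, while mOrange2 is high in both positive populations.

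As a share of all counts, with no scaling factor, the members took 1.48% ± 0.240 in Nep3-positive (SD, n = 5), 0.396% ± 0.0343 in Nep3-negative (n = 5), 0.433% ± 0.0135 in Ncol3-negative (n = 4) and 0.310% ± 0.0769 in Ncol3-positive libraries (n = 4). The order of the Ncol3 populations was the reverse of that after TMM scaling, since dropping the factors lowers Ncol3-positive levels of all genes alike, and it says nothing particular to the members. In Ncol3-positive replicates 1 to 4 the share was 0.385%, 0.369%, 0.248% and 0.240%. The libraries with the lowest TMM factors had the lowest shares.

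The median Ncol3 difference of the members was above that of all genes with TMM factors and with library size alone. It stood at 0.15 and 0.21 relative to the median of all genes, as above. On the TMM scale 115 of 150 members (76.7%) had the higher mean in Ncol3-positive cells, against 56.0% of all genes at 10 CPM or more. The choice bounded this difference in the members and not in all genes, so these values describe the choice and no lean is read from them. The population next below Nep3-positive was Ncol3-positive for 87 members, Nep3-negative for 44 and Ncol3-negative for 19. With library size alone, which lowers the Ncol3 difference of all genes alike, these counts were 2, 44 and 104. Within Ncol3 replicates 1 and 2 the members had a median difference of 0.20, and 124 of 150 lay within the 0.5 limit. Within replicates 3 and 4 the median was 0.27 and 111 lay within it. Over all genes at 10 CPM or more the medians were 0.04 and 0.12. Of all genes, 65.96% lay within the limit in replicates 1 and 2 and 53.55% in replicates 3 and 4. The choice bounded the members' difference over the mean of the same 4 replicates, so nothing is read from their larger shares. A total of 91 members lay within the limit in both pairs, so for the other 59 the evenness across the Ncol3 gate rests on the mean of the 4 replicates.

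Every Nep3-positive library exceeded every other library for 146 of the 150 members. This holds for 6.54% of all genes with any count, a background from which nothing is read here because the choice used these levels. The 4 members that overlapped ranked between 122 and 145, and 3 of them overlapped with an Ncol3-positive library and 1 with Nep3-negative replicate 4. By edgeR's quasi-likelihood test, adjusted over all genes after Benjamini and Hochberg, all 150 members passed the threshold of 0.05 as higher in Nep3-positive than in Nep3-negative cells, where 18.6% of the 18976 genes tested did. All 150 were also higher in Nep3-positive than in Ncol3-positive cells, where 20.7% of all genes were. The choice used both contrasts. In the contrast with Ncol3-positive cells, line and reporter change together and cannot be told apart.

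Each library was also left out in turn, and 150 genes were chosen from the other 17. Their level was then read in the library left out, on the scale of all 18. The choice did not use that level. The means it is set against came from the libraries that chose the genes, so the differences are in part fixed by the choice. With a Nep3-positive library left out, between 149 and 150 of the 150 chosen genes were above the highest of the 3 other population means in that library. The excess was at least 1 on the log2(CPM + 1) scale for 125, 114, 142, 133 and 139 genes in replicates 1 to 5. Its median was 1.41, 1.35, 1.59, 1.50 and 1.93. With an Ncol3-positive library left out, between 129 and 136 of the 150 chosen genes were at least 1 below the Nep3-positive mean in that library, with medians from 1.50 to 1.67. Left-out Nep3-negative libraries gave 137 to 147 genes and left-out Ncol3-negative libraries gave 143 to 148. These are single libraries and were not tested. The lists shared between 112 and 146 genes with the 150 members.

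Nep3-positive replicate 5 stood apart from the other 4 Nep3-positive libraries in this set. It had the highest level of the 5 for 108 of the 150 members (72.0%), while replicates 1 to 4 did for 8, 14, 15 and 5 members. Replicates 1 and 2 were the lowest for 51 and 50 members. Relative to the mean of the other 4, replicate 5 was higher by a median of 0.53 on the log2(CPM + 1) scale, and the other libraries lay between −0.24 and 0.07. Genes chosen without replicate 5 showed the same in it: 129 of 150 were above the mean of the other 4, by a median of 0.47. The left-out replicates 1 to 4 had medians of −0.31, −0.29, 0.05 and −0.14.

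**Figure D4:**
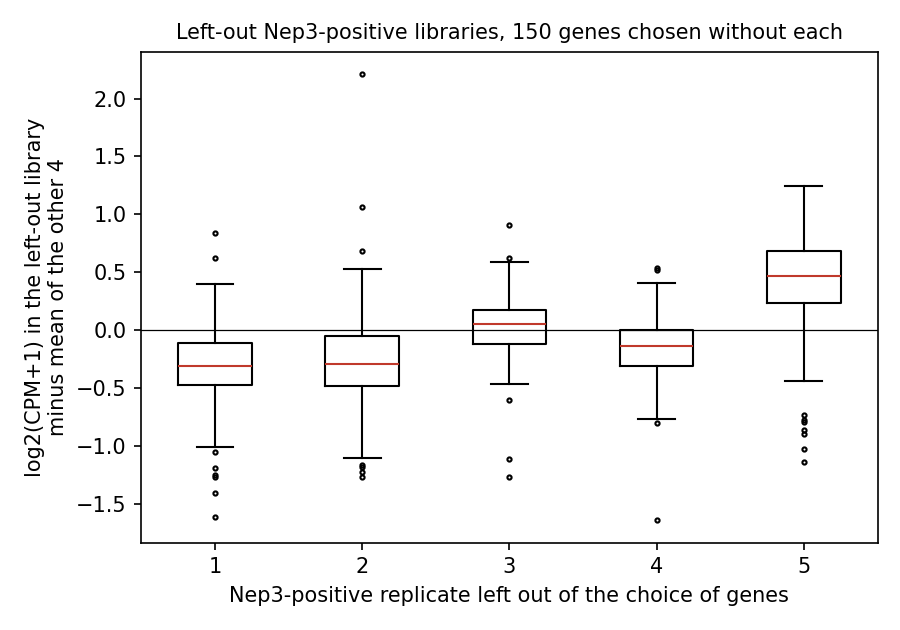
For each Nep3-positive replicate, 150 genes were chosen from the other 17 libraries. Boxes show their log2(CPM + 1) in the left-out library minus the mean of the other 4 Nep3-positive libraries (line: median, box: quartiles, whiskers: up to 1.5 box lengths, points: genes beyond). Replicate 5 lies above 0 with a median of 0.47, and replicates 1, 2 and 4 lie below.

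This height of replicate 5 was shared with the genes higher with both reporters. It was the highest of the 5 libraries for 633 of those 813 genes (77.9%), with a median excess of 0.60, but for only 26.2% of the 10168 genes with a Nep3-positive mean of at least 10 CPM, with a median excess of 0.03. The difference between these shares was not tested, since genes of one library are not replicates. The 813 genes were chosen by a Nep3-positive mean that includes replicate 5, which favours genes high in it. The 10168 genes were chosen by level alone. A choice without replicate 5 was made for the members and not for the 813 genes, so nothing is read from the larger share of the 813. Replicate 5 was also the deepest Nep3-positive library, with 15269119 counts against 7627503 to 10993914 in the other 4. Its TMM factor was 0.969, against 1.04 to 1.12, and its mOrange2 level of 664 CPM was inside the range of the others. The part of depth in this height was not tested. Without replicate 5, the summed member level was 12989 ± 1280 CPM (SD, n = 4) in place of 14262 ± 3054 CPM (n = 5). The count of 146 members separated from all other libraries could not change, so nothing is read from it. Leaving out a Nep3-positive library cannot undo separation, and the overlapping members had their lowest Nep3-positive value in replicates 1, 2 or 3.

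The members had a higher median variation among Nep3-positive libraries than all genes with a Nep3-positive mean of at least 10 CPM. Those genes were not matched to the members by level. The coefficient of variation (CV, SD divided by mean) over the 5 Nep3-positive libraries had a median of 23.9% in the members, 26.9% in the 813 genes higher with both reporters and 15.7% in the 10168 genes at 10 CPM or more. Without replicate 5 these medians were 16.9%, 18.3% and 14.9%. The contrast between members and all genes thus narrowed when that library was left out. The CV of single members ran from 3.96% to 95.5%.

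NV2.10941 and NV2.21181 were the steadiest members. NV2.10941 was at 62.5, 59.4, 60.6, 57.6 and 63.7 CPM in Nep3-positive replicates 1 to 5, a CV of 3.96%, and did not share the height of replicate 5. Its other libraries lay between 12.8 and 21.2 CPM. NV2.21181 was at 13.2, 11.9, 14.1, 14.0 and 12.4 CPM in Nep3-positive replicates 1 to 5 and between 0.332 and 4.50 CPM elsewhere.

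NV2.12179 and NV2.20956 were the least steady. NV2.12179 was at 6.31, 59.9, 16.0, 20.6 and 10.1 CPM in Nep3-positive replicates 1 to 5, and 5.14 CPM was its highest value elsewhere. A single library, replicate 2, therefore carried much of its mean of 22.6 ± 21.6 CPM (SD, n = 5), and replicate 5 was among the lowest. NV2.20956 was at 15.8, 20.4, 4.87, 3.78 and 22.3 CPM in Nep3-positive replicates 1 to 5 and at 2.66 CPM or less elsewhere. Its replicates 3 and 4 were low and its replicates 1, 2 and 5 high.

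**Figure D5:**
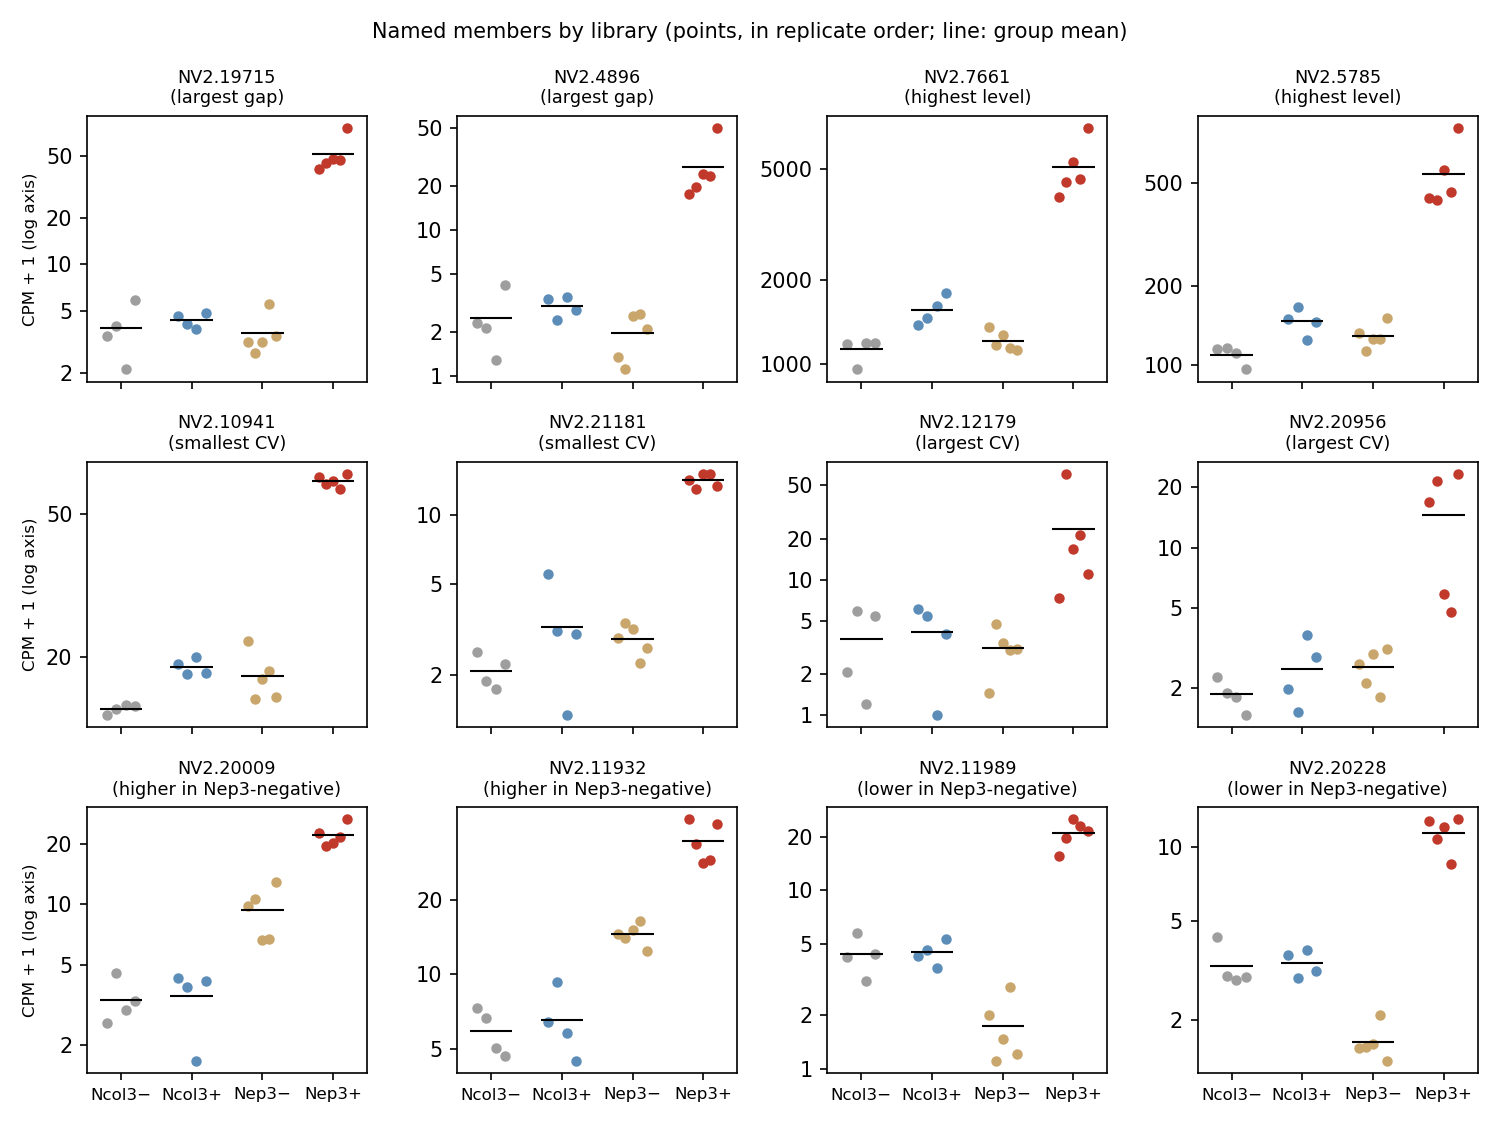
Each panel is a member named by rule, with CPM + 1 on a log axis for every library (points in replicate order, line at the group mean) in the 4 populations, the Ncol3 gates first. NV2.10941 varies between 57.6 and 63.7 CPM over the Nep3-positive libraries and NV2.12179 between 6.31 and 59.9 CPM. The bottom row shows members that differ between the negative populations.

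The negative populations of the 2 lines were compared because the choice set no limit on their difference, although it used the level of each. The members were spread around 0. In Nep3-negative against Ncol3-negative cells, 8 of 150 members were called higher (5.33%), where 5.12% of the 18976 genes tested were, and 8 were called lower (5.33%), where 3.38% of all genes were (edgeR, p adjusted over all genes, threshold 0.05). The median log2 fold change was 0.04 over the members and 0.02 over all genes tested. The share of members called was thus close to that of all genes. Levels did not overlap between the 2 populations for 11 members (7.33%) higher in Nep3-negative cells, against a background of 5.86% of all genes. They did not overlap for 7 members (4.67%) lower there, against 4.40%. This background is the 23764 genes with any count, which were not matched to the members by level. Line and negative gate change together between the 2 negative populations, and they cannot be told apart.

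NV2.20009 and NV2.11932 were the members most raised in Nep3-negative cells. NV2.20009 was at 8.78, 9.65, 5.67, 5.69 and 11.9 CPM in Nep3-negative replicates 1 to 5 and at 1.57, 3.53, 1.97 and 2.30 CPM in Ncol3-negative replicates 1 to 4, with no overlap. Its log2 fold change was 1.89 (SE 0.32, edgeR adjusted p = 0.000372). NV2.11932 was at 13.5 ± 1.46 CPM in Nep3-negative (SD, n = 5) and 4.94 ± 1.26 CPM in Ncol3-negative cells (n = 4), a log2 fold change of 1.44 (SE 0.22, edgeR adjusted p = 0.000151). Both rose again in Nep3-positive cells, to means of 21.1 and 33.5 CPM, and lay at 2.51 and 5.53 CPM in Ncol3-positive cells. Their levels were therefore higher in both gates of the Nep3 line than in either gate of the Ncol3 line.

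NV2.11989 and NV2.20228 were the members most reduced in Nep3-negative cells. NV2.11989 was at 0.996, 0.112, 0.483, 1.90 and 0.221 CPM in Nep3-negative replicates 1 to 5 and at 3.25, 4.79, 2.12 and 3.38 CPM in Ncol3-negative replicates 1 to 4. Its log2 fold change was −2.06 (SE 0.42, edgeR adjusted p = 0.00248), and on the Ncol3 side replicates 3 and 4 alone gave −1.79, which no longer passed (edgeR adjusted p = 0.0556). Without Nep3-negative replicate 4, its highest library in that population, it was −2.85, and over all single libraries left out it ran from −2.85 to −1.83. NV2.20228 was at 0.634 ± 0.273 CPM in Nep3-negative (SD, n = 5) and 2.31 ± 0.673 CPM in Ncol3-negative cells (n = 4), a log2 fold change of −1.84 (SE 0.32, edgeR adjusted p = 0.000631). In Nep3-positive cells the 2 genes reached 19.9 ± 3.58 and 10.4 ± 1.80 CPM (SD, n = 5). They were thus low in Nep3-negative, intermediate in both Ncol3 populations and high in Nep3-positive cells.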

How the data were processed

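RNA-seq libraries of sorted tentacle cells were grouped by reporter line and gate from their titles. The authors deposited raw counts per gene, and the submitters' processing notes name Trimmomatic, STAR 2.7.10a and featureCounts 2.0.1. The genome build, annotation, strand setting and filters are not given in the sources used here, so overlapping and near-identical genes are uncertain. Of 24538 entries, 24537 are NV2 IDs and 1 is mOrange2, and 773 had no count. The labels do not say that libraries came from separate animals, so p-values measure the spread between these samples. All 5 Nep3-positive descriptions give replicate number 1 and the design text gives fewer replicates, and the titles were followed.

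CPM used TMM factors from NV2 genes with any count. Tests used edgeR 4.0.16 in R 4.3.3 (filterByExpr, TMM, 1 quasi-likelihood fit of 4 group means to 18 libraries, two-sided). All 150 members passed the filter among 18976 genes. The common coefficient of biological variation was 25.4%. The SE is the log2 fold change divided by the square root of F. The fit and the choice of members were run on simulated counts with planted differences, as a check of the calculation only. The counts for the choice were drawn without biological variation, so that run does not show how reliable the members are. Alternatives were other scalings, filters, pseudocounts, DESeq2 1.42.0, a replicate block, left-out libraries and Ncol3 replicate pairs. Members and lists were chosen with earlier results of these data known. Named members are the 2 largest gaps, highest levels, smallest and largest CVs, and the 2 highest and lowest fold changes called between negative populations. Levels are not per length, so abundance is not compared precisely between genes.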

Additional observations from a re-analysis of the deposited data

Results flagged for a closer look

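The 68 sets examined held 4 or 5 libraries each (12 named members and 5 library measures in 4 populations). In 7 of them a library lay far from the others. Chance gives about 1 in 20 for independent sets not chosen by their values. Here some named members were chosen for a large CV or gap, and the sets share libraries, so that rate is no measure for the 7. The values are in CPM. Nep3-positive replicate 5 was high for NV2.19715 (75.0) and NV2.4896 (48.8). Nep3-positive replicate 2 was high for NV2.12179 (59.9). Nep3-negative replicate 4 was high for NV2.19715 (4.53). Ncol3-positive replicate 3 was low for NV2.20009 (0.665), Ncol3-negative replicate 1 was high for NV2.20228 (3.31) and Ncol3-negative replicate 2 was low for NV2.7661 (955). Over the 5 Nep3-positive libraries, 16 of 150 members had such a library, and in 14 of them it was replicate 5 on the high side.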

How the results depend on the processing

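The choice of members depended most on scaling. With library size only, 430 genes met the limits and 32 members were kept. A minimum of 20 CPM gave 141 genes and kept 91 members, and Ncol3 replicates 1 and 2 or 3 and 4 alone kept 95 and 98. DESeq2 size factors, pseudocounts of 0.5 and 2 and a minimum of 5 CPM gave 220, 201, 221 and 299 genes and kept 139, 131, 124 and 103 members. Leaving out 1 library gave 204 to 267 genes and kept 112 to 146 members. Between negative populations, 1613 genes and 16 members passed. Leaving out 1 library gave 1023 to 1698 genes and 10 to 18 members, with the lowest of both without Ncol3-negative replicate 2. Only Ncol3 replicates 3 and 4 gave 1002 genes and 11 members. DESeq2 gave 2153 genes and 18 members. The cause was not tested. All 150 members stayed higher than in Nep3-negative cells under all 25 alternatives, and 145 to 150 stayed higher than in Ncol3-positive cells. The list of members was held fixed here and the choice had used both contrasts, so nothing is read from these counts.

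Blocking on the replicate number, 1836 genes and 20 members passed between negative populations, and 150 and 149 members were higher than in Nep3-negative and Ncol3-positive cells. The labels do not say that a number marks a shared source. Deviations of same-numbered libraries correlated between 0.01 and 0.27 in the Nep3 line (mean 0.14), where 4 of 5 correlated best with their own number. This hints at pairing there, but not every pair was over 0.1, so the numbers were not used as pairs. Between the negative populations the correlations lay between −0.10 and 0.21, and 1 of 4 was best with its own number.

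Named members that did not pass between negative populations crossed 0 in places. NV2.7661 (0.11) had −0.11 with library size only and −0.0247 with only Ncol3 replicates 3 and 4. NV2.12179 (−0.19) had 0.0762 with the replicate block and 0.0468 with only Ncol3 replicates 3 and 4. With 1 library left out, NV2.12179 ran from −0.63 to 0.35, NV2.19715 from −0.35 to 0.34 and NV2.4896 from −0.83 to 0.14. Adjusted p over the alternatives was at most 0.00542 for NV2.20009, 0.00715 for NV2.11932, 0.0556 for NV2.11989 and 0.0191 for NV2.20228. Members at 10 to 20 CPM rest on as few as 37 counts in a Nep3-positive library, which limits the precision of their levels.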

Other observations

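Among the 150 member IDs there were 6 pairs of consecutive numbers, which involved 11 members (7.33%). One such pair holds NV2.5785, the second most abundant member, and NV2.5784, with Nep3-positive means of 539 and 418 CPM and gaps of 1.84 and 1.43. A run of consecutive IDs, NV2.6764, NV2.6765 and NV2.6766, had means of 84.2, 40.1 and 14.7 CPM. These IDs were chosen after their values were seen. Among the 813 genes higher with both reporters, 168 (20.7%) had such a neighbour in the set; a larger set holds more neighbours by its size alone. Whether NV2 numbers follow position in the genome is not given in the sources used here.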
